A study of Mus musculus with 6 samples.

Results

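The transcripts examined here were those of the 6 genes that encode the subunits of protein kinase A (PKA) in the table: the 2 catalytic subunits Prkaca and Prkacb, and the 4 regulatory subunits Prkar1a, Prkar1b, Prkar2a and Prkar2b. They were taken by symbol from the 23557 genes measured, as the best known direct target of the kinase inhibitor H89, and the rule uses no measured value. The samples were CT26 tumors, grown for 14 days under the skin of young adult female BALB/c mice from 500000 injected cells of this mouse colon carcinoma line. Of the 6 tumors, 3 came from NaCl mice, which received the vehicle alone, and 3 (the H89 tumors) from mice given repeated intraperitoneal injections of H89 at 10 mg/kg, begun once the tumors had grown. All mice were of the same strain, carried the same tumor line and kept their own immune system. Total RNA of whole tumors was sequenced in bulk, so that fewer cells of a type and less RNA per cell cannot be told apart. The tumors are numbered 1 to 3 within each group and came from different mice, so that the spread within a group is a spread between animals.

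PKA is a tetramer of a regulatory dimer and a pair of catalytic subunits. When cyclic AMP (cAMP) binds the regulatory subunits, the catalytic subunits are freed or activated and phosphorylate, among many substrates, the transcription factor CREB, which binds cAMP response elements in promoters. In T lymphocytes, cAMP and PKA type I, the holoenzyme built on RIα, are known to dampen signaling from the antigen receptor. H89 competes with ATP in the catalytic subunit and also inhibits MSK1, S6K1 and ROCK-II. The values below are amounts of mRNA and carry no measurement of kinase activity.

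All 6 genes have a start site among the promoter windows of RefSeq (GRCm38.p6), each 300 bases long and reaching from 250 bases before to 50 bases after the start, with 19 windows in all. The windows were searched on both strands for the full cAMP response element, TGACGTCA, and for its core, TGACG, which reads CGTCA on the other strand and is contained in the full element on both strands. A stretch of 30 bases around a match is shown for each gene that has one, because CREB, a substrate of PKA, is known to bind the full element. The core alone is a match of 5 bases, and binding by CREB was not measured. The stretches run 5′ to 3′ on the strand of the gene, and capitals mark the match.
Prkar1a, full element, chr11:109650889-109650918, plus strand: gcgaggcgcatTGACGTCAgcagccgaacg
Prkaca, core, chr8:83972959-83972988, plus strand: tgggctgcgggggCGTCAcggacagaggac
Prkacb, core, chr3:146813032-146813061, minus strand: gggggcttgaccgCGTCActtccggcgcgc
Prkar1b, core, chr5:139150034-139150063, minus strand: ttagagggcggagTGACGggcaggaggacg
Prkar2a, core, chr9:108692126-108692155, plus strand: ccgcggccgcgtgCGTCAcaacccgggcgc
The full element was found in 1 of the 6 genes, Prkar1a, where 2 overlapping windows cover the same 8 bases. Over all genes with a window, 2.03% of 27025 held it. The core was found in 5 of the 6 genes, against 23.0% of all genes, and these shares do not allow for the number of windows a gene has. Counted by window, 7 of the 19 held the core, against 20.8% of all windows, and overlapping windows can hold the same match. Neither motif was found in the 2 windows of Prkar2b.

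Each tumor had between 27067349 and 31958793 estimated counts. Levels are given as counts per 1000000 (CPM) after scaling by the trimmed mean of M-values (TMM), with factors from 0.956 to 1.06, and differences as log2 fold changes of H89 against NaCl from edgeR's quasi-likelihood test with Benjamini-Hochberg adjustment over 13118 genes. Among the markers of colon epithelium, Krt20 was the most abundant, at 94.9 to 103 CPM in NaCl tumors and 65.7 to 81.4 CPM in H89 tumors. Other defining epithelial genes were at or near 0: Cdx2 did not exceed 0.304 CPM, Vil1 did not exceed 0.186 CPM and Epcam did not exceed 1.18 CPM in any tumor. Summed levels did not overlap between the groups for 6 of 16 marker lists, and the levels of single genes did not for 30.7% of all genes tested. The sums were higher in H89 tumors for NK cells (14.7 to 35.6 CPM against 5.15 to 13.3 CPM), for B cells (2.32 to 3.43 CPM against 1.40 to 1.86 CPM) and for fibroblasts (2778 to 3564 CPM against 2475 to 2707 CPM). They were lower for platelets (19.8 to 24.4 CPM against 29.0 to 45.5 CPM), for colon epithelium (77.1 to 92.9 CPM against 110 to 124 CPM) and for keratinocytes (14.0 to 17.9 CPM against 45.9 to 73.1 CPM). The difference for platelets was mostly that of Pf4 (log2 fold change -1.14). Itga2b, the next most abundant member, overlapped between the groups (log2 fold change -0.07), as did Gp1ba. Ppbp and Gp9 were lower in H89 tumors, but neither exceeded 1.80 CPM in any tumor. The sum for colon epithelium was carried by Krt20 and Krt18 (log2 fold changes -0.47 and -1.04), whereas the other 3 tested members, Cdh1, Krt8 and Krt19, had estimates above 0. The sum for keratinocytes was almost all Cdsn, at 43.1 to 69.7 CPM in NaCl and 10.3 to 14.3 CPM in H89 tumors, while Krt10, the other tested member, had a log2 fold change of 0.31, Krt1 was at 0 in all tumors, and Krt5, Krt14 and Lor were at or near 0, so that the list does not show a difference in keratinocytes. The 8 T cell markers all had a log2 fold change above 0, with a median of 1.32, but their sums overlapped (24.1 to 62.2 CPM against 11.9 to 25.8 CPM). Cdsn was the only marker called (log2 fold change -2.15, edgeR adjusted p = 0.0288). H89 tumor 1 stood apart in its skeletal muscle markers, whose sum was 18.2 CPM there and at most 1.83 CPM in the other tumors. The part of these differences in the values of the subunit genes was not tested. Values given below without H89 tumor 1 leave out a whole tumor and cannot single out a cell type.

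No difference of the 6 subunit genes between H89 and NaCl tumors passed the test, and the estimates ranged from -0.25 for Prkar1b to 0.16 for Prkar2b on the log2 scale. All 6 passed the filter of a mean of at least 0.5 CPM, and 0 of 6 had an adjusted p under 0.05 in edgeR, where 1.59% of all genes tested had one. DESeq2 and limma voom also called 0 of 6. At an unadjusted p under 0.05, edgeR counted 0 of 6 subunit genes, against 25.0% of all genes tested, and DESeq2 and limma voom counted 0 of 6 as well. The levels of the groups did not overlap for 2 of 6, against 30.7% of all genes tested. The log2 fold change was below 0 for 5 genes and above 0 for 1, with a median of -0.16, where the median of all genes was 0.004. The 95% intervals together ran from 0.645-fold to 1.27-fold, so that changes of the subunit mRNAs outside these bounds lie outside every interval. The exact two-sided permutation test used for single genes cannot go below 0.1 with 3 tumors against 3.

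**Figure D1:**
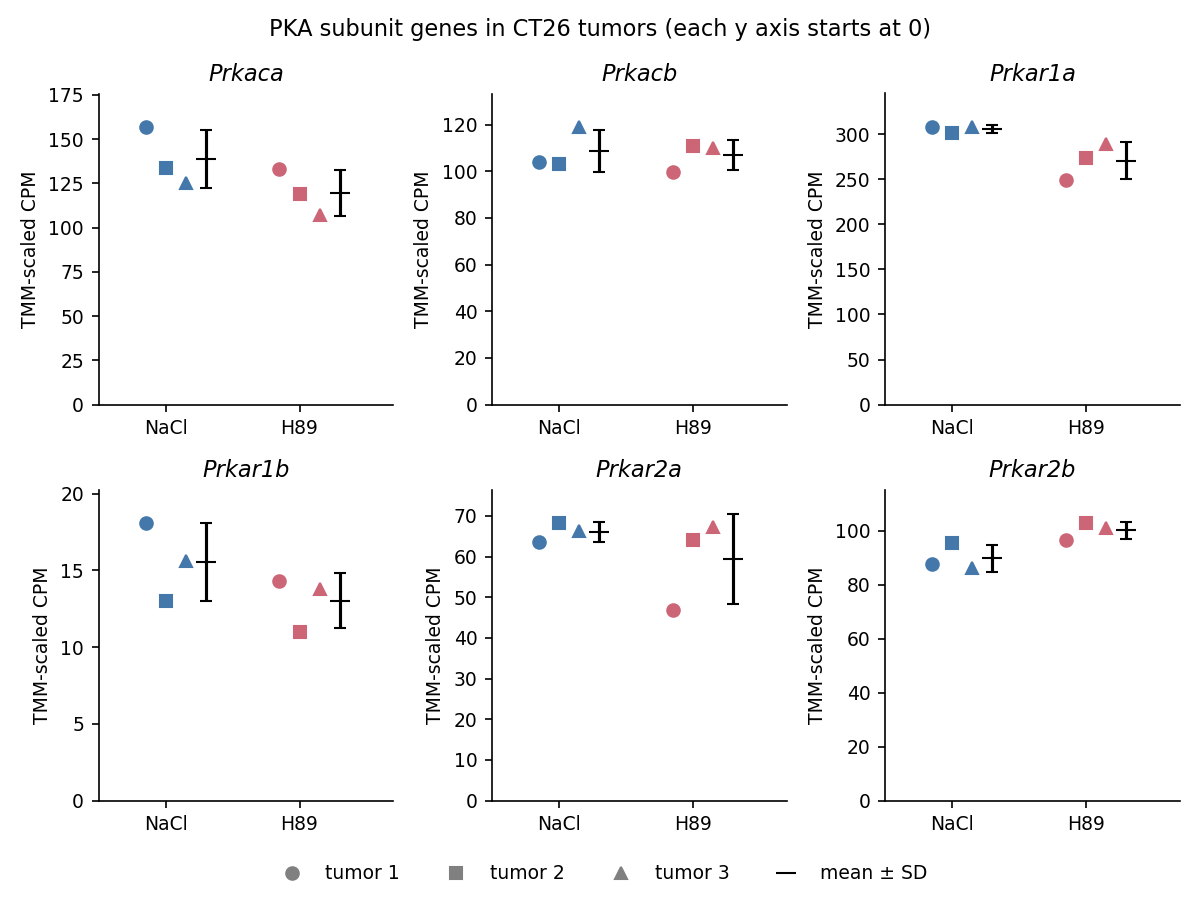
TMM-scaled CPM of each PKA subunit gene (y axis, from 0) in the 3 NaCl and 3 H89 tumors (x axis), with a symbol for each tumor number and the mean ± SD in black. The groups lie apart for Prkar1a, lower under H89, and for Prkar2b, higher under H89, and they overlap for the other 4 genes.

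Of the catalytic subunits, Prkaca encodes Cα, the main catalytic subunit of most tissues (chr8:83972993-83996443, plus strand, GRCm38). Its level was 157, 134 and 125 CPM in NaCl tumors 1 to 3, and 133, 119 and 107 CPM in H89 tumors 1 to 3. The highest H89 tumor lay above the lowest NaCl tumor, and the groups therefore overlapped. The mean was 139 ± 16.3 CPM in NaCl and 120 ± 13.0 CPM in H89 tumors (SD, n = 3 each; exact permutation p = 0.2). The log2 fold change was -0.21 (SE 0.12, 95% interval -0.48 to 0.06, edgeR adjusted p = 0.298). It was -0.11 without NaCl tumor 1, the highest of the 6, and -0.14 without H89 tumor 3, the lowest. In the other direction, it was -0.29 without H89 tumor 1 and -0.28 without NaCl tumor 3. The exons of Prkaca share 2.97% of their stretches of 31 bases with other genes, mostly with the pseudogene Prkaca-ps1, which was listed at 0 in all 6 tumors.

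Prkacb encodes Cβ, the other catalytic subunit, which is made in several splice forms (chr3:146729574-146812990, minus strand). Its level was 104, 103 and 119 CPM in NaCl tumors and 99.5, 111 and 110 CPM in H89 tumors. The H89 tumors fell within or just below the range of the NaCl tumors. The means were 109 ± 8.52 CPM and 107 ± 6.36 CPM (SD, n = 3 each; exact permutation p = 0.8), and the log2 fold change was -0.03 (SE 0.09, 95% interval -0.23 to 0.18, edgeR adjusted p = 0.883). Its direction depended on the processing, and it was 0.05 when only the total counts were used for scaling.

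Prkar1a, which encodes RIα, the regulatory subunit of PKA type I and the inhibitor of the catalytic subunits in lymphocytes, is the gene with the full response element shown above (chr11:109649405-109669656, plus strand). Its level was 308, 301 and 308 CPM in NaCl tumors and 249, 274 and 289 CPM in H89 tumors. All H89 tumors lay below all NaCl tumors, and the NaCl tumors differed little among themselves. The mean was 306 ± 4.00 CPM against 271 ± 20.4 CPM (SD, n = 3 each; exact permutation p = 0.1, the smallest possible), with a log2 fold change of -0.18 (SE 0.09, 95% interval -0.37 to 0.02, edgeR adjusted p = 0.244). This separation depended on the scaling: in CPM without TMM, NaCl tumors had 295, 299 and 303 CPM and H89 tumors 245, 282 and 308 CPM, so that H89 tumor 3 was the highest of all and the groups overlapped (exact permutation p = 0.4).

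Prkar1b encodes RIβ, a type I regulatory subunit best known from the brain (chr5:139017306-139150001, minus strand). It was the least abundant subunit, with 18.1, 13.0 and 15.6 CPM in NaCl tumors and 14.3, 11.0 and 13.8 CPM in H89 tumors. Tumor 2 was the lowest of both groups, and the groups overlapped. The means were 15.5 ± 2.54 CPM and 13.0 ± 1.75 CPM (SD, n = 3 each; exact permutation p = 0.3), and the log2 fold change was -0.25 (SE 0.16, 95% interval -0.63 to 0.12, edgeR adjusted p = 0.365). It was -0.13 without NaCl tumor 1 and -0.15 without H89 tumor 2, but -0.37 without NaCl tumor 2 and -0.325 without H89 tumor 1. The summed neuron markers, of which Tubb3 was the most abundant, ran from 35.8 to 48.4 CPM in NaCl and from 33.0 to 36.1 CPM in H89 tumors, and their part in the values of Prkar1b was not tested. Its exons share 341 bases, 8.95% of their length, with Gm15672, a noncoding gene on the same strand, so that reads from these bases cannot be assigned to one of the pair. Gm15672 is not among the genes measured, and whether its reads were counted for Prkar1b cannot be told.

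Prkar2a encodes RIIα, a regulatory subunit of PKA type II, the form that anchoring proteins hold at membranes and organelles (chr9:108689314-108750436, plus strand). Its level was 63.5, 68.3 and 66.3 CPM in NaCl tumors and 46.8, 64.0 and 67.3 CPM in H89 tumors. H89 tumor 1 was low, and the other H89 tumors fell within the NaCl range. The means were 66.0 ± 2.41 CPM and 59.4 ± 11.0 CPM (SD, n = 3 each; exact permutation p = 0.5), and the log2 fold change of -0.15 (SE 0.13, 95% interval -0.46 to 0.16, edgeR adjusted p = 0.510) became -0.01 without H89 tumor 1 and -0.25 without H89 tumor 3. H89 tumor 1 was also the one with skeletal muscle transcripts, Acta1 reaching 12.3 CPM there, and their part in the values of Prkar2a was not tested.

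Prkar2b encodes RIIβ, the type II regulatory subunit known mainly from fat and brain (chr12:31958476-32061296, minus strand), and was the subunit gene without a match to the response element. Its level was 87.8, 95.4 and 86.3 CPM in NaCl tumors and 96.8, 103 and 101 CPM in H89 tumors. All H89 tumors lay above all NaCl tumors, by a narrow margin. The mean was 89.8 ± 4.89 CPM against 100 ± 3.29 CPM (SD, n = 3 each; exact permutation p = 0.1, the smallest possible), and the log2 fold change was 0.16 (SE 0.08, 95% interval -0.02 to 0.34, edgeR adjusted p = 0.243). The groups were also apart in CPM without TMM, with 83.9, 94.5 and 84.7 CPM in NaCl and 95.1, 106 and 108 CPM in H89 tumors. Of the adipocyte markers, Fabp4 was the most abundant, at 11.0 to 34.9 CPM in NaCl and 12.7 to 23.2 CPM in H89 tumors, and Adipoq did not exceed 0.0912 CPM outside H89 tumor 1, where it was highest.

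**Figure D2:**
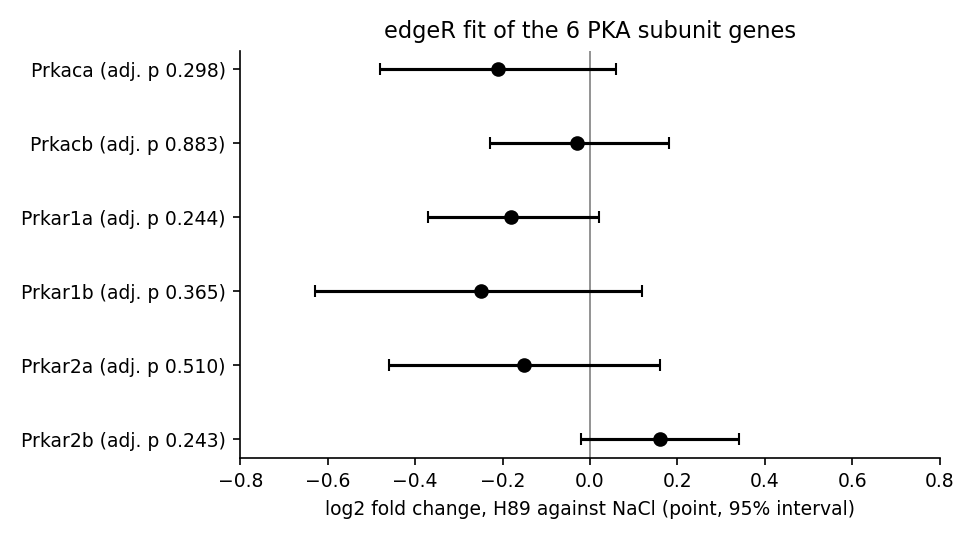
Log2 fold change of H89 against NaCl (x axis) for each PKA subunit gene (y axis) from the edgeR fit, with the point estimate and its 95% interval, and the adjusted p beside each name. Every interval includes 0, and Prkar2b, at 0.16, is the gene with an estimate above 0.

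Levels of different genes were compared per kilobase of exon, taken as the union of a gene's exons in GENCODE M21. In NaCl tumors, Prkar1a stood at 70.8 ± 0.926 CPM per kilobase, followed by Prkaca at 55.7 ± 6.55, Prkar2b at 24.6 ± 1.34, Prkacb at 12.4 ± 0.972, Prkar2a at 10.4 ± 0.377 and Prkar1b at 4.08 ± 0.667 CPM per kilobase (SD, n = 3). The order was the same in H89 tumors, with 62.7 ± 4.72, 48.1 ± 5.21, 27.5 ± 0.901, 12.2 ± 0.725, 9.31 ± 1.72 and 3.42 ± 0.460 CPM per kilobase, and in both groups no gene overlapped its neighbor in the order. The estimate of length matters for the middle of this order. With the mean length of the protein-coding transcripts, Prkacb, Prkar2a and Prkar2b came within 33.0 to 37.4 CPM per kilobase of one another in NaCl tumors, whereas Prkar1a and Prkaca stayed first and second and Prkar1b last.

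RIα and Cα were therefore the most abundant regulatory and catalytic transcripts of these tumors per length. Prkar1a made up 38.6%, 39.7% and 41.2% of the summed level per kilobase in NaCl tumors and 36.0%, 38.4% and 40.7% in H89 tumors, and these groups overlapped. Prkar2b made up 13.0%, 14.9% and 13.6% in NaCl tumors and 16.6%, 17.1% and 16.9% in H89 tumors, which did not overlap under any of the 3 estimates of length. The share of Prkar1a among the regulatory subunits was 64.5% ± 0.929 in NaCl and 60.9% ± 0.553 in H89 tumors (SD, n = 3 each), again without overlap under the 3 estimates. An estimate of length scales a gene by the same factor in every tumor, so that the 3 estimates are no independent check. Both shares are built from the gene levels given above and are not separate observations. The ratio of regulatory to catalytic transcripts per kilobase was 1.62 ± 0.132 in NaCl and 1.72 ± 0.244 in H89 tumors, and the groups overlapped.

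**Figure D3:**
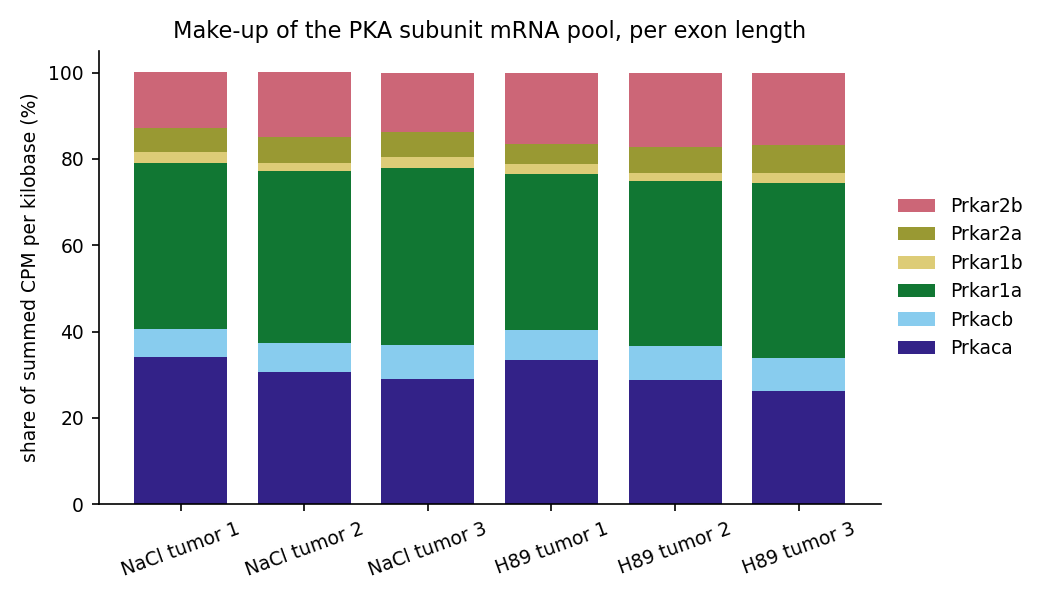
Share of each PKA subunit gene in the summed CPM per kilobase (y axis, percent, stacked to 100) for each of the 6 tumors (x axis). Prkar1a and Prkaca hold the broadest bands in every tumor, and the band of Prkar2b runs from 13.0% to 14.9% in NaCl tumors and from 16.6% to 17.1% in H89 tumors.

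Ratios of subunits within a tumor do not depend on the scaling between tumors, and they address whether subunits of one kind moved apart. The 4 ratios planned were those of the catalytic pair, of the type I pair, of the type II pair and of RIIα to RIα. These, too, were chosen with earlier results of these data known. The log2 ratio of Prkar2b to Prkar2a was 0.47, 0.48 and 0.38 in NaCl tumors and 1.05, 0.69 and 0.59 in H89 tumors. The H89 tumors lay above the NaCl tumors, a change from 1.36 to 1.71 counts of Prkar2b for each count of Prkar2a as geometric means. The difference of 0.33 had an exact permutation p of 0.1, the smallest possible, and 0.400 after adjustment over the 4 ratios. It was 0.20 without H89 tumor 1, whose Prkar2a was low. The other planned ratios overlapped between groups: Prkacb to Prkaca differed by 0.19 (exact permutation p = 0.5; 0.07 without NaCl tumor 1, 0.09 without H89 tumor 3, and 0.32 without NaCl tumor 3 or without H89 tumor 1), Prkar1b to Prkar1a by -0.07 (exact permutation p = 0.7) and Prkar2a to Prkar1a by 0.01 (exact permutation p = 1.0).

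All 15 pairs were then computed, of which the other 11 were chosen after the values had been seen. The groups did not overlap for 3 of the 15. For comparison, the levels of 30.7% of all genes tested did not overlap, and a share for ratios of other genes was not computed. Prkar2b was in each of the 3, and since its own levels were apart, these ratios are not separate observations. Its log2 ratio to Prkar1a was -1.81, -1.66 and -1.84 in NaCl tumors and -1.36, -1.41 and -1.51 in H89 tumors. Its log2 ratio to Prkaca was -0.84, -0.49 and -0.54 in NaCl tumors and -0.46, -0.20 and -0.08 in H89 tumors. In both ratios the lowest H89 tumor exceeded the highest NaCl tumor, in the second by a small step. The differences were 0.34 and 0.37 (exact permutation p = 0.1 each, 0.50 adjusted over the 15). The ratios of Prkar2b to Prkacb (difference 0.19) and to Prkar1b (difference 0.41) overlapped, and the 15 pairs are not independent since they share genes.

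**Figure D4:**
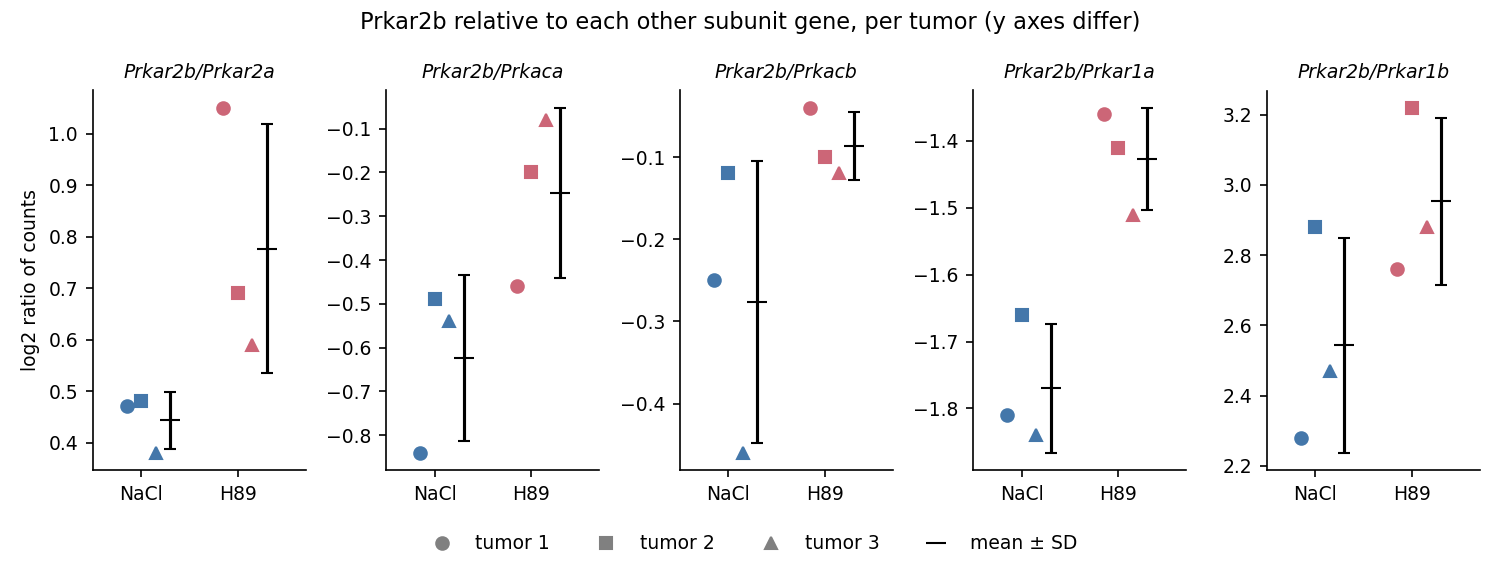
Log2 ratio of the counts of Prkar2b to those of each other subunit gene (y axis, a separate scale in each panel, not starting at 0) in the 3 NaCl and 3 H89 tumors (x axis), with a symbol for each tumor number and the mean ± SD in black. The groups lie apart against Prkar2a, Prkaca and Prkar1a and overlap against Prkacb and Prkar1b.

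The genes around the kinase gave 59 tested members in 7 lists. In edgeR, 0 of 59 had an adjusted p under 0.05, 6 were higher and 3 lower at an unadjusted p under 0.05 (15.3% of the 59), and 14 did not overlap between groups (23.7%), shares below those of all genes tested given above. The log2 fold change had a median of 0.11 over the 59.

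Among 6 tested modulators of PKA, 2 were higher at an unadjusted p under 0.05, where 25.0% of all genes tested passed in either direction. The median log2 fold change of the modulators was 0.09. Pkib, an inhibitor peptide that blocks the catalytic subunit as a pseudosubstrate, had 5.58, 6.53 and 4.53 CPM in NaCl and 8.38, 8.85 and 7.69 CPM in H89 tumors. The groups did not overlap, and the log2 fold change was 0.58 (SE 0.17, edgeR adjusted p = 0.102). Pja2, a ubiquitin ligase that targets regulatory subunits, was the most abundant of the list, with 105 ± 9.35 CPM in NaCl and 101 ± 18.1 CPM in H89 tumors (SD, n = 3 each).

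Of 19 tested anchoring proteins, which bind regulatory subunits, 1 was higher and 1 lower at an unadjusted p under 0.05, against 25.0% of all genes tested. Akap8, a nuclear anchoring protein, had 69.3, 76.3 and 70.2 CPM in NaCl tumors and 98.9, 96.6 and 85.2 CPM in H89 tumors. This was a difference without overlap (log2 fold change 0.38, SE 0.09, edgeR adjusted p = 0.0721). Ezr, which encodes ezrin, a linker of membrane and actin that also anchors PKA, had 281 ± 7.62 CPM in NaCl and 243 ± 6.01 CPM in H89 tumors (log2 fold change -0.21, edgeR adjusted p = 0.143).

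Upstream, 9 cyclases and G protein subunits were tested. Gnas, whose product Gαs stimulates the cyclases, was the most abundant and overlapped between groups, at 1003 ± 58.8 CPM and 927 ± 107 CPM (SD, n = 3 each; edgeR adjusted p = 0.542). Gnai2, whose product inhibits them, had 944, 884 and 764 CPM in NaCl tumors and 708, 681 and 653 CPM in H89 tumors. It did not overlap between groups, and its log2 fold change was -0.34 (SE 0.10, edgeR adjusted p = 0.101).

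Of 11 tested phosphodiesterases, which break down cAMP, 9 had a log2 fold change above 0, with a median of 0.31. Pde1b, a calcium-dependent member, had 4.14, 3.21 and 2.89 CPM in NaCl tumors and 7.13, 6.35 and 5.93 CPM in H89 tumors, without overlap (log2 fold change 0.92, SE 0.19, edgeR adjusted p = 0.0596). Pde4a, the most abundant, overlapped between groups, at 50.6 ± 5.71 CPM and 56.8 ± 6.10 CPM (SD, n = 3 each; edgeR adjusted p = 0.411).

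Other receivers of cAMP and other kinases sensitive to H89 were few. Rapgef3, which encodes the cAMP-activated exchange factor EPAC1, had 43.6, 47.2 and 46.2 CPM in NaCl tumors and 69.9, 61.0 and 50.6 CPM in H89 tumors. It lay higher in every H89 tumor (log2 fold change 0.41, SE 0.12, edgeR adjusted p = 0.105). Rapgef4, the only other tested gene of that list, had an estimate below 0 and overlapped between groups (log2 fold change -0.41, SE 0.34, edgeR adjusted p = 0.483). Of the 3 other H89 targets, Rps6kb1, the gene of S6K1, had 43.9 ± 1.87 CPM in NaCl and 49.7 ± 2.10 CPM in H89 tumors (SD, n = 3 each; log2 fold change 0.18, edgeR adjusted p = 0.210), and Rock2, the most abundant, 187 ± 10.5 CPM and 193 ± 21.1 CPM (edgeR adjusted p = 0.836).

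Of 9 tested genes known to respond to cAMP through CREB, 1 was lower at an unadjusted p under 0.05, against 25.0% of all genes tested in either direction. This was Areg, the gene of the EGF receptor ligand amphiregulin, with 9.24, 11.2 and 16.0 CPM in NaCl tumors and 5.06, 3.83 and 6.87 CPM in H89 tumors. The groups did not overlap (log2 fold change -1.21, SE 0.27, edgeR adjusted p = 0.0659). The nuclear receptor gene Nr4a2, the most abundant of the list, had 37.0 ± 1.60 CPM and 37.7 ± 5.96 CPM (SD, n = 3 each; edgeR adjusted p = 0.907).

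**Figure D5:**
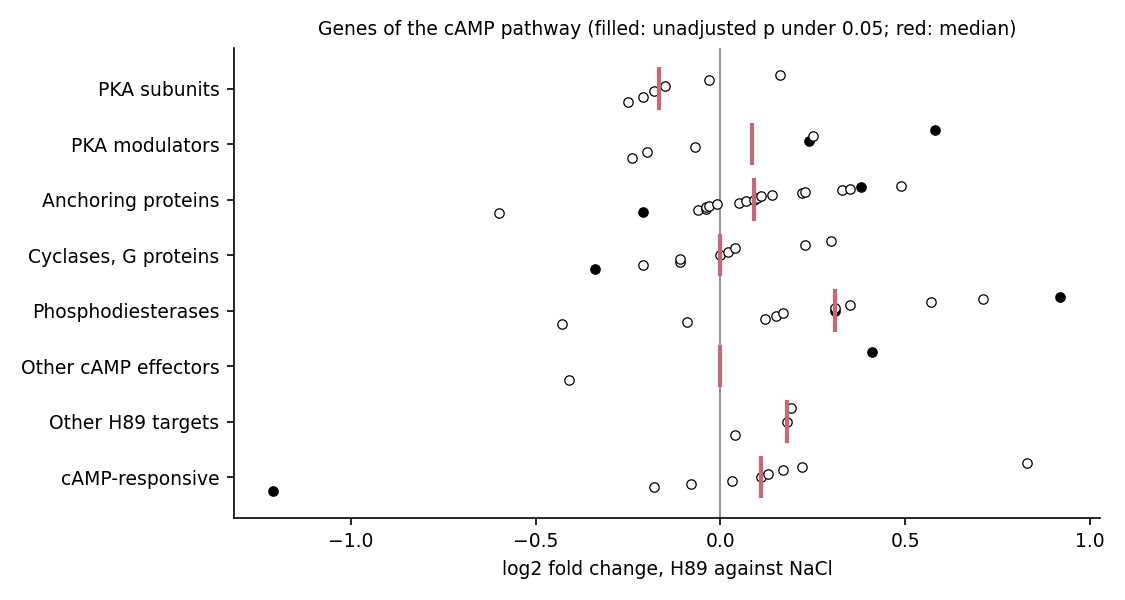
Log2 fold change of H89 against NaCl (x axis) of every tested gene of the PKA subunits and of 7 lists of the cAMP pathway (y axis), 1 point a gene, filled at an unadjusted p under 0.05, with the median of each list in red. None of the 6 subunit genes is filled, and the median lies at -0.16 for the subunits and at 0.31 for the phosphodiesterases.

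The genes whose levels followed each subunit most closely were found among 10462 genes with a mean of at least 5 CPM, by the Pearson correlation of log2(CPM + 0.5) over the 6 tumors. The points share libraries and groups, and with 6 tumors and so many genes values near 1 arise for every member, so that the correlations are given as a description. The closest were Homer3 for Prkaca (0.996), Cop1 for Prkacb (0.995), Ap2b1 for Prkar1a (0.999), Hsdl1 for Prkar1b (0.993), Eif4ebp2 for Prkar2a (0.989) and 4933427D14Rik for Prkar2b (0.997). The next 2 were R3hdm4 and Mepce for Prkaca, Atrnl1 and Dtna for Prkacb, Socs5 and Selp for Prkar1a, Plin2 and Trim32 for Prkar1b, Rfwd3 and Tmtc4 for Prkar2a, and Arhgap27 and Rps6kb1 for Prkar2b.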

How the data were processed

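The authors extracted total RNA from frozen CT26 tumors and sent it for sequencing (BGISEQ-500). Their processing notes name kallisto, DESeq2 and GRCm38, and versions are not given in the sources used here. The authors named the deposited table TPM, but it holds estimated counts, with sums of 27067349 to 31958793 a tumor. They were rounded to whole numbers and tested with edgeR 4.0.16 in R 4.3.3 (TMM, glmQLFit, glmQLFTest, treatment only, genes with a mean of at least 0.5 CPM); the fit was checked on simulated counts. Alternatives used DESeq2 1.42.0 and limma 3.58.1, other scalings and filters, and fits without each tumor.

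Ratios used counts with 0.5 added. Intervals cover the spread between tumors, and 3 tumors a group limit the precision. Gene positions are those of GENCODE M21 by symbol. The subunits, lists and tests were chosen with earlier results of these data known. Named were all 6 subunits, from each other pathway list the called genes or else those with the smallest p and the highest level, and the 3 genes most like each subunit. Of the 6 marker lists that did not overlap, single genes were named for colon epithelium, keratinocytes and platelets only. Acta1, Tubb3, Fabp4, Adipoq, Rapgef4 and the T cell list were added after their values had been seen.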

Additional observations from a re-analysis of the deposited data

How the results depend on the processing

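Over 16 alternative fits, 0 of 6 subunit genes had an adjusted p under 0.05 in any, and the adjusted p ran from 0.123 to 0.980. The log2 fold change kept its sign in all 16 for every subunit gene but Prkacb, which reached 0.005 with a mean of at least 5 CPM, 0.046 with total counts only and 0.025 with quantile normalization, and ran from -0.062 to 0.04 when single tumors were left out. Scaling by total counts moved the median of all genes to 0.075. At an unadjusted p under 0.05, 1 of 6 subunit genes was counted in 6 fits: Prkar2b with a mean of at least 5 CPM, total counts only or quantile normalization, Prkaca with the replicate block or without H89 tumor 1, and Prkar1a without H89 tumor 3. In the main edgeR fit 25.0% of all genes tested passed this threshold, and the share in these 6 fits was not computed. Same-numbered tumors correlated at 0.163, 0.061 and -0.025 after removal of the group means, and different-numbered tumors at -0.373 to 0.35. With 3 tumors a group, these values cannot show whether tumors were paired, and the numbers were used as names only. The replicate block left 0 genes with an adjusted p under 0.05 in the table, as did quantile normalization and limma on log2(CPM + 1). There were 208 in edgeR, 4 in limma on log2(CPM + 0.1), 0 to 12 without single tumors and 1392 in DESeq2. Without single tumors, the log2 ratio of Prkar1b to Prkar1a ran from -0.202 to 0.055 and that of Prkar2a to Prkar1a from -0.044 to 0.111, and both changed sign, while that of Prkacb to Prkaca ran from 0.065 to 0.32. CPM without TMM, chosen after the data had been seen, left 1 subunit gene without overlap, Prkar2b. By the longest and the mean coding transcript, shares of the summed level per kilobase in NaCl tumors became 27.8% and 24.1% for Prkaca, 11.5% and 12.0% for Prkacb, 2.69% and 4.04% for Prkar1b, and 12.2% and 10.6% for Prkar2b, and by the mean 37.5% for Prkar1a, 11.8% for Prkar2a and 1.77 for the regulatory to catalytic ratio. The causes were not tested.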
